A study of Mus musculus with 2 samples.

Results

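Immediate early genes and the genes of the AP-1 transcription factors were compared between Foxj3 knockout (KO) and wild-type (WT) mouse skeletal myoblasts, precursor cells that divide and later fuse into muscle fibres. The 10 genes were Fos, Fosl1, Fosl2, Jun, Junb, Atf3, Egr1, Myc, Ier2 and Ier3, taken as a set of growth factor and stress induced early genes. All of their probe sets named by the array's platform annotation were used, 13 of 45037 probe sets and 10 of 18193 genes with a named probe set. In the KO culture Foxj3, the gene of a forkhead family factor, was knocked out, and the WT culture had it intact. Both were at passage 3, grown in medium with 20% fetal bovine serum and harvested at 80% confluence, and the RNA of each was hybridised to 1 Affymetrix Mouse430_2 array. The sources used here do not state which allele was made, the strain, the age of the animals or how many animals a culture came from. There was 1 array per group, so no difference could be tested, and genotype cannot be told apart from any difference in how the cultures were fed, handled or harvested.

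Immediate early genes are switched on within minutes of a stimulus, without new protein synthesis, by kinases that act on factors already bound to their promoters. Fos and Jun family proteins pair through leucine zippers to form AP-1, which binds DNA at target genes of growth, migration and stress. In muscle precursors AP-1 and Myc are known as factors of the growing, undifferentiated state, and early genes are also known to respond to serum, scraping, enzymatic detachment and temperature.

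The gene-proximal sequences of the AP-1 genes are shown because promoter elements are known as a route by which early signals act. RefSeq windows of build GRCm38.p6, from 250 bases before to 50 bases after the annotated start, were matched for 6 of the 10 genes. These were Fos, Fosl2, Jun, Junb, Atf3 and Ier3. The 5 that encode AP-1 proteins are printed 5′ to 3′ on the gene's own strand, with matches to the searched motifs in capitals. The Fos window is chr12:85473640-85473939 on the plus strand, that of Fosl2 chr5:32136222-32136521 on the plus strand, that of Jun chr4:95052173-95052472 on the minus strand, that of Junb chr8:84978699-84978998 on the minus strand and that of Atf3 chr1:191183284-191183583 on the minus strand.
Fos: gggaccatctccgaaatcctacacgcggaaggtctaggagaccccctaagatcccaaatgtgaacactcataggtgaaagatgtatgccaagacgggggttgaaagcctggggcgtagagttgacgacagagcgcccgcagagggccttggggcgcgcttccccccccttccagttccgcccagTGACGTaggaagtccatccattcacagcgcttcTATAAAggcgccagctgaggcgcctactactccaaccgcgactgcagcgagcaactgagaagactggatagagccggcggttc
Fosl2: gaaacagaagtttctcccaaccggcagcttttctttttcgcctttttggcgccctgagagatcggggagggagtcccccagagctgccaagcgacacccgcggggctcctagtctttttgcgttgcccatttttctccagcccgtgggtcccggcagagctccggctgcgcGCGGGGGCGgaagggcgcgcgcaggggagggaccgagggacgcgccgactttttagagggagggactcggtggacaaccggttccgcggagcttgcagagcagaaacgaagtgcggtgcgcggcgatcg
Jun: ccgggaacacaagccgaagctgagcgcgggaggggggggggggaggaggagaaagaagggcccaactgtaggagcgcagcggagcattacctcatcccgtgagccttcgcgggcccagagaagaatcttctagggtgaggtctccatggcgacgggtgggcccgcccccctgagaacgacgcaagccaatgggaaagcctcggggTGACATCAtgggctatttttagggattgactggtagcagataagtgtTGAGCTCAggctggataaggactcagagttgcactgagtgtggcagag
Junb: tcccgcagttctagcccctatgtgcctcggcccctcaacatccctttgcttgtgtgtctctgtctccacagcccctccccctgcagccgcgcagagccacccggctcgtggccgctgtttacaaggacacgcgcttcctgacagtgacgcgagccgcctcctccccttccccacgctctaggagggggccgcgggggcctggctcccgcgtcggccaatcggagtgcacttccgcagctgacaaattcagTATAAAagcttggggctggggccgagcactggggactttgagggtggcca
Atf3: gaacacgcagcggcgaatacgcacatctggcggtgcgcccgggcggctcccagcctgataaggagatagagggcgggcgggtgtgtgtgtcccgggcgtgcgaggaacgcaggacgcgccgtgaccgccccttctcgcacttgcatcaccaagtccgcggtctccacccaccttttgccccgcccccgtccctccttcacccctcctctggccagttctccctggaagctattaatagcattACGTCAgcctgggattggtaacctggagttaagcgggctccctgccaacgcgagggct

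Motifs were searched on both strands of each window. They were the AP-1 site (TGANTCA), the CRE-like site (TGANNTCA), the core of the cAMP response element (TGACGT, added after the windows had been read), the EGR site (GCGNGGGCG), the CArG box bound by serum response factor, and the TATA box (TATAAA). A full cAMP response element would match both TGANNTCA and TGACGT. Positions count from 1 at the 5′ end of the window. Jun held CRE-like sites at 206 to 213 (TGACATCA) and at 253 to 260 (TGAGCTCA), a motif found in 14.1% of the 32851 windows in the table. The CRE core stood at 185 to 190 in Fos and, on the opposite strand, at 243 to 248 in Atf3, and was found in 7.51% of windows. Fosl2 held an EGR site at 172 to 180, against 5.55% of windows, and TATA boxes stood in Fos at 218 to 223 and in Junb at 251 to 256, against 13.6% of windows. The AP-1 site (7.81% of windows) and the CArG box (1.63% of windows) were in none of the 6 windows, and the Ier3 window held no match to any of the motifs. Sequence further upstream was not searched, and Fosl1, Egr1, Myc and Ier2 had no matched window. Absence from a window thus does not mean that a gene lacks the site. A match is a string of letters in this window and says nothing of binding in these cells.

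The arrays were close in overall signal, with a median intensity of 63.9 on the KO array and 62.0 on the WT array. A detection floor was set at 47.04, the 40th percentile of the pooled intensities, and 14597 genes exceeded it on the KO array, the WT array or both and are called measured. Values under the floor were set to it, so that a ratio with 1 array under the floor is a bound, and all log2 ratios are KO over WT. The brightest Foxj3 probe set read 77.3 on the KO array and 495.5 on the WT array, while another read 99.4 on the KO array and 79.7 on the WT array, and the third was under the floor on both. Which of them lies in the deleted part was not given, so they do not settle the check of the labels. All 12 myoblast markers were over the floor, including Myod1 and Myf5, the determination factors of the myogenic lineage. Of markers of other cell types, 6 of 10 fibroblast, 7 of 10 macrophage and 3 of 8 endothelial genes were measured. The pan-leukocyte gene Ptprc and the endothelial gene Pecam1 were under the floor on both arrays. Other genes of these lists were over it on both. The macrophage gene Adgre1 read 210.3 on the KO array and 312.8 on the WT array, and Csf1r 276.5 on the KO array and 171.2 on the WT array. The endothelial gene Kdr read 101.3 on the KO array and 110.2 on the WT array. Whether other cell types were present is not settled by these markers.

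Represented by its brightest probe set, each of the 10 genes was measured, and 9 exceeded the floor on both arrays. Atf3, Fosl2, Junb and Egr1 were at least 2-fold lower in the KO culture, Myc was at least 2-fold higher, and the other 5 differed by less. Of all measured genes 6.72% were at least 2-fold lower and 3.73% at least 2-fold higher in the KO culture, 10.4% in either direction. The log2 ratios of the 10 genes ran between -2.10 for Atf3 and 1.16 for Myc, and their median was -0.51, beside a median of -0.06 over all measured genes. The share of genes at least 2-fold lower varied with brightness. With the measured genes cut into 4 equal bins of mean signal, it was 3.26% in the dimmest bin, which held Fos and Ier3, 9.84% in the bin of Atf3 and Fosl2, 9.59% in the bin of Junb and Ier2, and 4.19% in the brightest bin, which held Egr1, Fosl1, Jun and Myc.

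**Figure D1:**
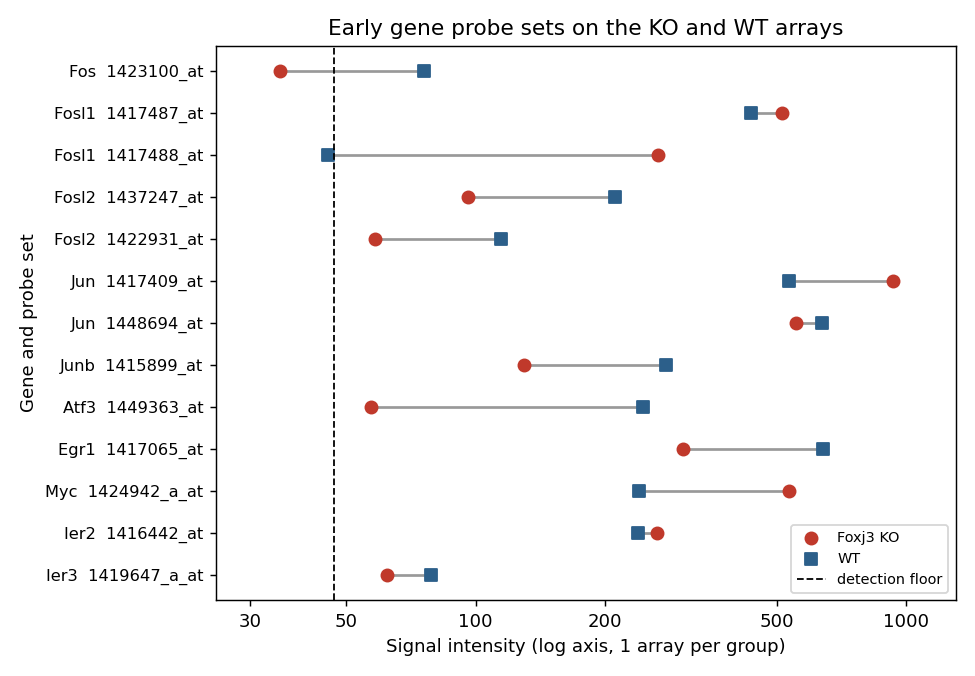
Signal intensity (log axis) of each of the 13 probe sets on the KO array (circles) and the WT array (squares), 1 array per group, with the detection floor of 47.04 as a dashed line. Atf3, Fosl2, Junb and Egr1 lie to the left on the KO array, Myc lies to the right, and the probe sets of Jun differ in direction.

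Within the Fos family, Fos and Fosl2 were lower and Fosl1 higher in the KO culture. Fos, the prototype immediate early gene, was dim, at 35.1 on the KO array, under the floor, and 75.9 on the WT array. It was therefore at least 1.61-fold lower in the KO culture (log2 ratio at the floor -0.69). Without a floor, or with the floor at the 20th percentile, its log2 ratio was -1.11, past 2-fold.

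Fosl2, which encodes the late-induced family member Fra-2, was lower at both of its probe sets. Probe set 1437247_at read 95.95 on the KO array and 211.2 on the WT array, 2.20-fold lower (log2 ratio -1.14). Probe set 1422931_at read 58.5 on the KO array and 114.4 on the WT array, 1.96-fold lower (log2 ratio -0.97). Neither was under the floor on any array, and their log2 ratios differed by 0.17.

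Fosl1 encodes Fra-1, a family member known as a target of ERK signalling and of AP-1 itself, and its probe sets shared a direction but not a size. The brighter one, 1417487_at, read 514.5 on the KO array and 436.6 on the WT array, 1.18-fold higher (log2 ratio 0.24). The dimmer one, 1417488_at, read 264.9 on the KO array and 45.5 on the WT array, just under the floor, which makes it at least 5.63-fold higher (log2 ratio at the floor 2.49). The platform annotation gives both the same target accession. Averaged over them, the log2 ratio was 1.37, so whether Fosl1 counts as 2-fold higher depends on the probe set used.

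Jun, the main partner of Fos proteins in AP-1, had probe sets of opposite direction. Probe set 1417409_at read 931.3 on the KO array and 534.2 on the WT array, 1.74-fold higher (log2 ratio 0.80). Probe set 1448694_at read 555.7 on the KO array and 637.5 on the WT array, 1.15-fold lower (log2 ratio -0.20). Their mean log2 ratio was 0.30, and Jun has no settled direction in these data.

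Junb encodes a Jun protein known for opposing Jun at several promoters, and it was lower at its single probe set. It read 129.5 on the KO array and 277.4 on the WT array, 2.14-fold lower (log2 ratio -1.10). With loess scaling the log2 ratio was -0.97, just short of 2-fold.

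Atf3 encodes a stress-induced factor of the ATF family that pairs with Jun proteins, and it differed most of the 10 genes by brightest probe sets. Its single probe set read 57.2 on the KO array, a little over the floor, and 244.7 on the WT array, 4.28-fold lower (log2 ratio -2.10). Of all measured genes 0.575% had a log2 ratio this low or lower. With the floor at the 60th percentile it was at least 2.83-fold lower.

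Among the early genes chosen here 6 were AP-1 genes, counting Atf3 with the Fos and Jun families. By their brightest probe sets 3 of the 6 were at least 2-fold lower, beside 6.72% of all measured genes. Higher by as much were 0 of them, beside 3.73% of all measured genes. Over the 6 the median log2 ratio was -0.89, with 4 below 0 and 2 above. Fosb (log2 ratio -0.44) and Jund (-0.55), family members outside the 6, were lower by less than 2-fold. The count and the median do not include them.

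Among the early genes outside AP-1, Egr1 and Myc stood on opposite sides. Egr1, a zinc finger factor induced by serum through serum response factor, read 303.2 on the KO array and 641.9 on the WT array, 2.12-fold lower (log2 ratio -1.08). Myc, a helix-loop-helix factor of growth and ribosome production, read 533.1 on the KO array and 239.3 on the WT array, 2.23-fold higher (log2 ratio 1.16). Of all measured genes 5.34% were as low as Egr1 or lower, and 2.55% as high as Myc or higher.

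The remaining pair was close on both arrays. Ier2, which encodes a short-lived nuclear protein, read 264.1 on the KO array and 238.1 on the WT array (log2 ratio 0.15). Ier3, a stress-inducible gene linked to survival, read 62.3 on the KO array and 78.6 on the WT array (log2 ratio -0.34), near the floor on both.

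**Figure D2:**
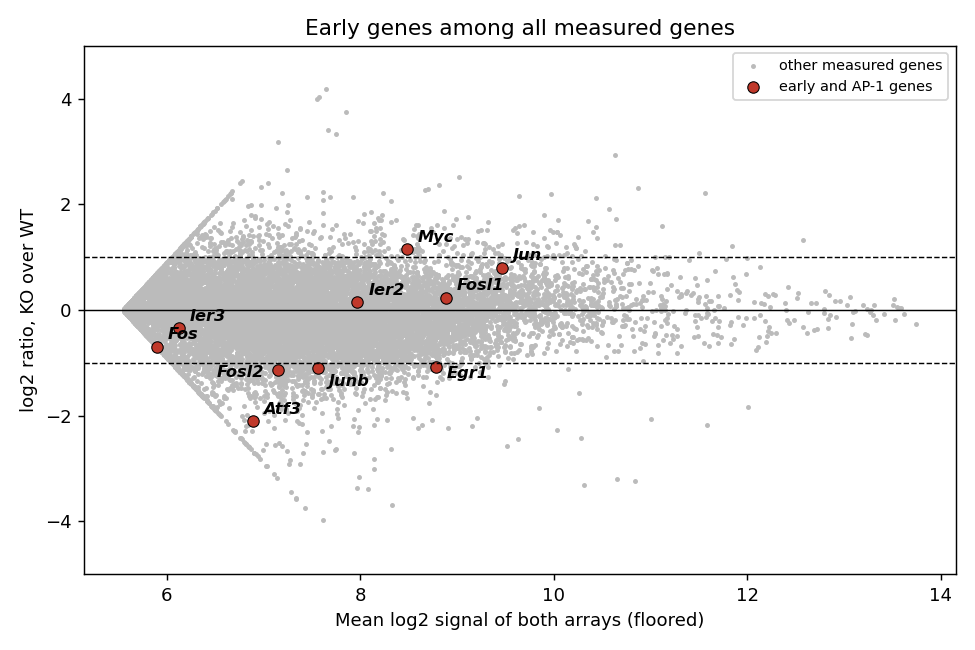
Log2 ratio of KO over WT against the mean log2 signal of both arrays, after the floor, for each measured gene by its brightest probe set (grey) and for the 10 early and AP-1 genes (red, labelled), with dashed lines at 2-fold; 1 gene, at -8.05, lies outside the axis. Atf3 lies well below the 2-fold line, and Fosl2, Junb and Egr1 lie just past it, where many other genes are found.

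Differences between probe sets of a gene gave the only measure at hand of technical spread. Probe sets of a gene can match different transcripts, so these differences are not technical spread alone. For 3047 genes exactly 2 probe sets exceeded the floor on the KO and the WT array. Their log2 ratios had the same sign in 52.8%, and their difference had an SD of 0.88. That corresponds to 0.63 for a single probe set if both vary equally and independently. A difference at least as large as that of Jun was seen in 25.7% of these genes. The log2 ratios of Egr1 (-1.08), Junb (-1.10), Fosl2 (-1.14), Myc (1.16) and Atf3 (-2.10) were larger in size than the SD of a single probe set. These genes were named for passing 2-fold, a log2 ratio of 1. The result was thus fixed by the threshold and is no support for them. Jun (0.80, brightest probe set) and Fos (-0.69, a bound) were also larger. The log2 ratios of all measured genes had an SD of 0.65, close to that of a single probe set. The SD of a single probe set leaves out any spread between cultures. Atf3, Junb, Egr1 and Myc each had a single probe set, so no other reading of them was at hand. Adding the floor to each value before log2, in place of the floor, left Fosl2 at -0.85, Junb at -0.88 and Egr1 at -0.98, all under 2-fold. Atf3 was then at -1.48 and Myc at 1.02.

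**Figure D3:**
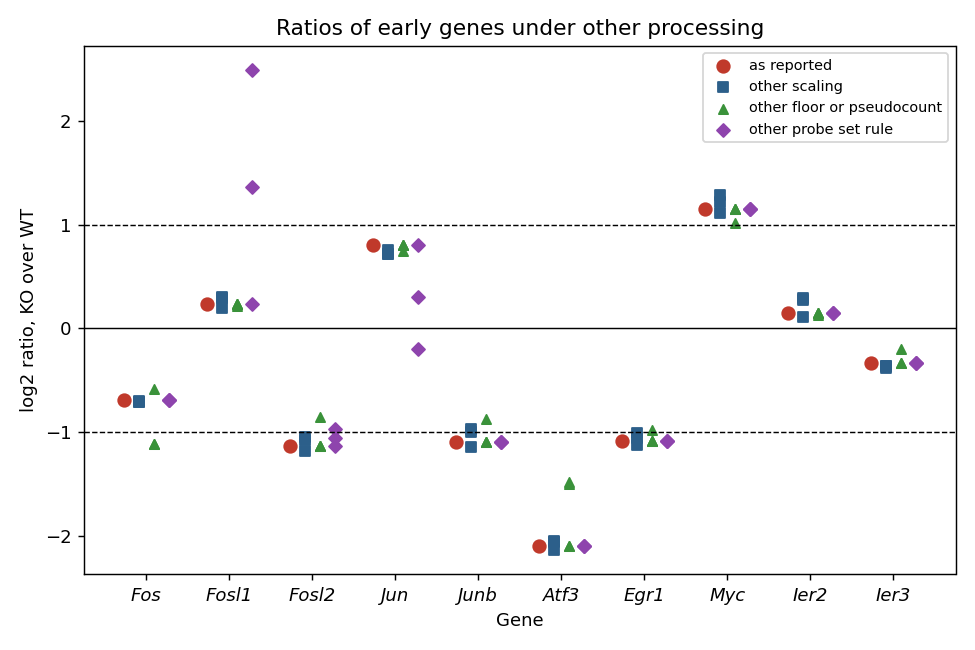
Log2 ratio of KO over WT for each of the 10 genes as reported (circles), with other scaling (squares), with another floor or a pseudocount (triangles) and with another rule for the probe set (diamonds), with dashed lines at 2-fold. Atf3 and Myc stay past 2-fold under each setting shown, Fosl2, Junb and Egr1 lie around the line, and Fosl1 and Jun depend on the probe set.

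The other genes of AP-1 and of the early response were read from lists chosen by function. Of the other AP-1 and small Maf factors, 10 of 11 were measured, and the median log2 ratio was -0.02. Of these 0 differed by 2-fold or more, beside 10.4% of all measured genes. The most different were Batf, which encodes a leucine zipper partner of Jun proteins, at 106.6 on the KO array and 54.0 on the WT array (1.97-fold higher), and Maf, at 145.1 on the KO array and 85.0 on the WT array. Maf had 3 further probe sets, and 2 of them pointed the other way. The remaining members of the Fos and Jun families, named here after their values were seen, were Fosb, at 56.5 on the KO array and 76.6 on the WT array, and Jund, at 1014 on the KO array and 1481 on the WT array (log2 ratio -0.55, with its other probe set at -0.01).

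The CREB and ATF factors, relatives of Atf3, numbered 7 measured genes with a median of -0.22. Of these 0 passed 2-fold upward, beside 3.73% of all measured genes, and 1 downward, beside 6.72%. That gene was Creb3, a membrane-bound factor of the endoplasmic reticulum, at 150.8 on the KO array and 376.5 on the WT array, while 1 of its 3 further probe sets pointed upward. Atf4, the stress-translated factor that is known to induce Atf3, read 2702 on the KO array and 1613 on the WT array (log2 ratio 0.74) by its brightest probe set, while its 2 further probe sets were lower, at -0.35 and -0.34. It was chosen after its value was seen.

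Other immediate early genes differed in both directions, with a median of -0.08 over 42 measured genes. Upward 4 passed 2-fold (9.52%, beside 3.73% of all measured genes), and downward 5 did (11.9%, beside 6.72%). Among the lower ones, the EGF receptor ligand gene Hbegf read 37.9 on the KO array and 170.3 on the WT array, at least 3.62-fold lower, with its other probe set at a log2 ratio of -0.99. The kinase gene Sgk1, induced by serum and glucocorticoids, read 58.8 on the KO array and 167.9 on the WT array, 2.86-fold lower. Zfp36l2, which encodes a protein of mRNA decay, read 1687 on the KO array and 592.8 on the WT array, 2.85-fold higher. Socs3, an inhibitor of cytokine signalling, read 146.7 on the KO array and 51.9 on the WT array, 2.82-fold higher. Zfp36l2 and Socs3 each had 2 further probe sets, 1 higher and 1 lower.

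The list drawn up as ERK feedback inhibitors, called ERK inhibitors below, numbered 15 measured genes with a median of 0.05. It also held phosphatases of stress kinases, such as Dusp16, so its values are not those of ERK inhibitors alone. By brightest probe sets 0 passed 2-fold upward, beside 3.73% of all measured genes, and 2 downward, beside 6.72%. Spry4, a Sprouty inhibitor of receptor signalling, read 37.5 on the KO array and 128.5 on the WT array, at least 2.73-fold lower, with its other probe set at -0.16. Dusp16, a phosphatase of stress kinases, read 114.7 on the KO array and 243.3 on the WT array, 2.12-fold lower. The further probe set of Errfi1 stood at 3.32, against 0.18 at its brightest. The lowest further probe set of Spred1 stood at -1.11, against -0.12 at its brightest. Errfi1 and Spred1 were named after their values were seen. The MAP kinases, serum response factor and its ternary complex partners numbered 18 measured genes with a median of -0.45, which was -0.02 with the mean over the probe sets of each gene. Of these 18 genes 1 was at least 2-fold different, beside 10.4% of all measured genes. That gene was Mapk9, which encodes the Jun kinase JNK2, at 1689 on the KO array and 375.6 on the WT array, 4.50-fold higher. Its 2 other probe sets were also higher, with log2 ratios of 0.20 and 1.30.

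Genes known as AP-1 targets had log2 ratios on either side of 0 (7 above, 6 below) by their brightest probe sets. Cd44, named after its values were seen, was counted below 0 at -0.0045, with its 2 other probe sets at 1.01 and 1.31. The median of the targets was 0.02 over 13 measured genes and 0.21 with the mean over probe sets. Of the 13 genes 0 passed 2-fold upward, beside 3.73% of all measured genes, and 1 downward, beside 6.72%. That gene was Fst, which encodes the myostatin antagonist follistatin, at 96.9 on the KO array and 351.2 on the WT array, 3.62-fold lower, with its other probe set at -1.02. Partners and antagonists of Myc numbered 12 measured genes with a median of -0.46, which turned to 0.01 with the mean over probe sets. Of these 0 passed 2-fold upward, beside 3.73% of all measured genes, and 2 downward, beside 6.72%. The 2 were of the Mxd family that competes with Myc for Max. Mxd3 read 76.6 on the KO array and 175.8 on the WT array, with its other probe set at -1.17, and Mxd4 read 69.2 on the KO array and 156.2 on the WT array, with 1 of 2 further probe sets higher.

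The known targets of Myc numbered 20 measured genes with a median of -0.21, 9 above 0 and 11 below. That median had no settled direction, at 0.02 with the mean over probe sets and 0.19 without _s_at and _x_at probe sets, which can match several transcripts. Of these 20 genes 2 passed 2-fold upward (10%, beside 3.73% of all measured genes) and 1 downward (5%, beside 6.72%). Cdk4, a kinase of the G1 phase, read 1764 on the KO array and 654.6 on the WT array, 2.69-fold higher, with its 2 other probe sets at 0.91 and 1.14. The cap-binding gene Eif4e read 1136 on the KO array and 357.9 on the WT array, 3.17-fold higher, but its 3 further probe sets were all lower. Rrs1, a ribosome assembly gene, read 284.5 on the KO array and 575.2 on the WT array, with its other probe set at 0.09.

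**Figure D4:**
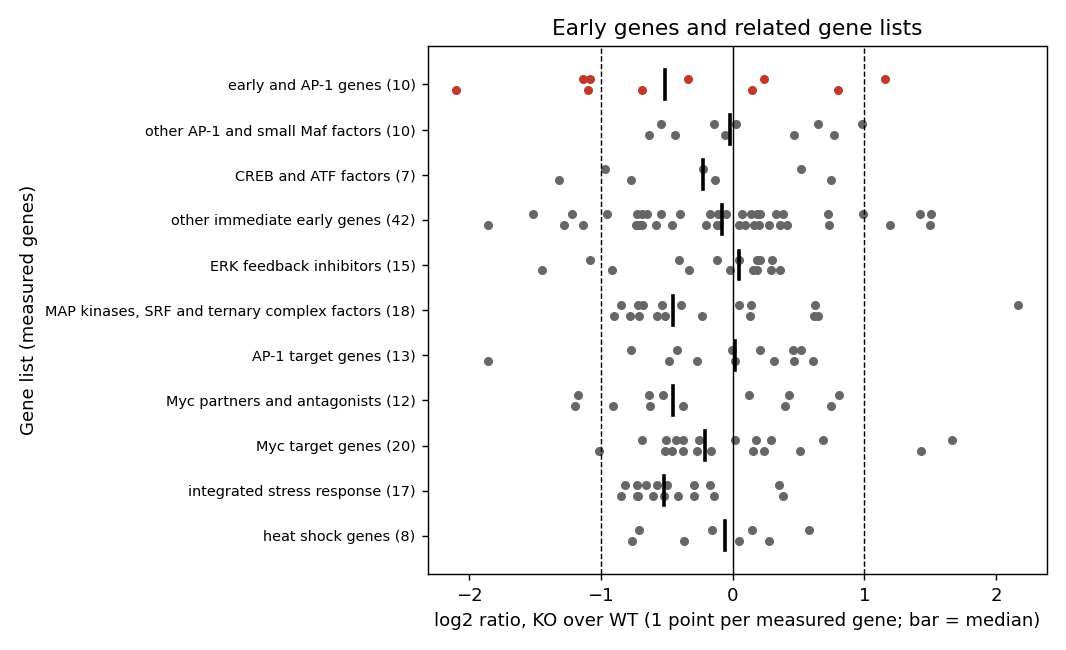
Log2 ratio of KO over WT of each measured gene by its brightest probe set, for the 10 early and AP-1 genes (red) and for related gene lists (grey), with the number of measured genes in brackets, a bar at each median and dashed lines at 2-fold. The medians of the early genes (-0.51) and of the integrated stress response (-0.52) are the lowest of the lists drawn. By brightest probe sets 0 of the 17 stress response genes pass 2-fold, beside 10.4% of all measured genes.

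Gene lists of stress and of the state of the culture were read beside these values. The integrated stress response list held 17 measured genes with a median of -0.52, beside -0.06 over all measured genes. By brightest probe sets 15 were below 0 and 0 past 2-fold, beside 10.4% of all measured genes past 2-fold. Further probe sets of these genes ran from -1.87 (Hspa5) to 1.31 (Xbp1, named after its value was seen). The median was -0.30 with the mean over probe sets and -0.29 without _s_at and _x_at probe sets. Ddit3, which encodes the stress factor CHOP, read 419.6 on the KO array and 756.5 on the WT array. The chaperone gene Hspa5 read 1631 on the KO array and 2878 on the WT array, with its 2 further probe sets at -1.87 and -0.03. Heat shock genes, which are also known to respond to handling of cells, numbered 8 measured genes with a median of -0.05. Of these 0 passed 2-fold, beside 10.4% of all measured genes. Hsph1 read 344.2 on the KO array and 584.5 on the WT array, and Dnajb1 302.9 on the KO array and 494.4 on the WT array, each with a further probe set that was higher.

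Differentiated muscle markers differed by more, in the median, than any of the 10 early genes did by its brightest probe set. Of 16 measured genes 15 were at least 2-fold lower in the KO culture, beside 6.72% of all measured genes. The 16 had a median log2 ratio of -2.89 and a summed signal of 7532 on the KO array and 37720 on the WT array. The summed signal of the 12 myoblast markers was 11666 on the KO array and 10057 on the WT array. Of these 6 were higher and 6 lower, with a median log2 ratio of 0.01. Past 2-fold were 2 upward, beside 3.73% of all measured genes, and 0 downward, beside 6.72%. The 2 were Sdc4, at 2149 on the KO array and 468.0 on the WT array, and Myod1, at 1751 on the KO array and 631.3 on the WT array. The other probe set of Sdc4 had a log2 ratio of 0.22. The summed signal of the 7 measured macrophage markers was 811.8 on the KO array and 929.0 on the WT array. That of the 6 measured fibroblast markers was 1980 on the KO array and 1829 on the WT array, and that of the 3 measured endothelial markers 259.1 on the KO array and 183.6 on the WT array. In bulk RNA, fewer cells that express a gene and less RNA per cell cannot be told apart. The part of these marker differences in the values of Atf3, Fosl2, Junb, Egr1 and Myc was not tested.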

How the data were processed

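Total RNA of 1 KO and 1 WT culture was extracted and 10 ug of each was labelled as biotinylated cRNA, per the labels' protocols. The intensities deposited by the authors are linear signals, 1 per probe set and array. The sources used here do not give the algorithm or scaling behind them. The scanner records, per the file headers, were the same in 40 of 42 fields, with the same array lot and scan day; they differed in fluidics module and scan time.

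Of 45037 probe sets, 34945 had 1 symbol in the platform annotation (which may be outdated) and 34741 of these were updated through Entrez identifiers in RefSeq (GRCm38.p6, for names). The 932 with several symbols and the 9160 not listed named no gene. Columns left without a sample numbered 0. A gene was represented by its probe set with the highest mean log2 signal. Python 3.11.15 with pandas 2.3.3 and statsmodels 0.14.6 (loess, span 0.3) was used. With 1 array per group no p-value was computed, and 2-fold was the threshold for counts. The calculation was run on simulated data with differences beyond 2-fold planted only in brighter genes, and with less noise than the probe sets show here. That run checks the arithmetic and does not bear on dim genes or on genes near 2-fold.

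Members and gene lists were chosen with earlier results of these data known. Genes named from a list were the up to 4 that differed most among those past 2-fold, or, where there were none, the 2 that differed most; those named outside this rule are marked, apart from Foxj3, the markers and the 10 early genes. Precision is limited by the number of arrays.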

Additional observations from a re-analysis of the deposited data

How the results depend on the processing

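No paired analysis was possible because each group had 1 array. No alternative fixed in advance changed the sign of any of the 10 genes, but most of them could not. Another floor or a pseudocount keeps the order of the arrays at a probe set. None of the 10 genes has an _s_at or _x_at probe set, and the mean over probe sets acts only on Fosl1, Fosl2 and Jun. For the other genes only the other scalings could turn a sign. The use of the dimmer probe set, chosen after seeing the data, turned Jun to -0.20. The median log2 ratio of the 10 genes ran between -0.71 (floor at the 20th percentile or no floor) and -0.39 (pseudocount). Fos and Ier3 were under a floor at the 60th percentile on both arrays and dropped out there. The pseudocount left 2 of the 10 genes at least 2-fold different, 1 of them lower, beside 3.33% of all genes lower. A threshold of 3-fold left 1 different, 1 lower (1.51% of all genes) and 0 higher. There were 2 genes higher with a 1.5-fold threshold (12.8% of all genes). The count was also 2 with the mean over probe sets (3.03% of all genes) and with the dimmer probe sets (3.73% of all genes). The cause was not tested beyond the construction of each setting.

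Counts of list genes at least 2-fold different moved by over 1.5 times as follows. A 1.5-fold threshold, which 32% of all measured genes passed in either direction, gave 4 other AP-1 and small Maf factors, 4 CREB and ATF factors, 19 other immediate early genes, 10 MAP kinase genes, 3 AP-1 targets, 7 Myc partners, 5 Myc targets, 7 stress response genes and 2 heat shock genes. A 3-fold threshold, passed by 2.26% of all measured genes, gave 0 CREB and ATF factors, 1 other immediate early gene, 0 ERK inhibitors, 0 Myc partners and 1 Myc target. The pseudocount gave 5 other immediate early genes, 1 ERK inhibitor and 0 Myc partners. The mean over probe sets gave 0 CREB and ATF factors, 5 other immediate early genes, 1 Myc partner and 1 stress response gene. Without _s_at and _x_at probe sets there were 0 CREB and ATF factors and 2 stress response genes. Median scaling gave 2 CREB and ATF factors, and loess scaling 1 ERK inhibitor. The floor at the 20th percentile gave 1 ERK inhibitor and 2 AP-1 targets, no floor gave 3 AP-1 targets and 1 heat shock gene, and the floor at the 60th percentile gave 1 ERK inhibitor and 1 Myc partner.

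Medians of lists also turned sign. With the mean over probe sets these were the Myc partners (0.01), the Myc targets (0.02) and the ERK inhibitors (-0.13). Without _s_at and _x_at probe sets they were the Myc targets (0.19), the other immediate early genes (0.07) and the heat shock genes (0.10). The other AP-1 and small Maf factors turned to 0.05 with quantile scaling, 0.07 with loess scaling and 0.02 with the floor at the 60th percentile. The ERK inhibitors turned to -0.03 with quantile scaling, and a 60th percentile floor gave the AP-1 targets -0.0045.

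Signal over background limits Fos, Ier3 and the KO value of Atf3, which lie near or under the floor.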
